A study of Mus musculus with 15 samples.

Results

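The comparison described here asked what XPO4 overexpression did to the transcriptome of hepatic stellate cells that had received no other treatment. It rested on 7 of the 15 RNA sequencing libraries, 3 from cells transduced to overexpress XPO4 and 4 from control cells given the empty vector, all listed as untreated at baseline. The cells were JS1, a mouse hepatic stellate cell line that the labels give as TLR4-/- cells expressing wild-type TLR4, so both groups carried that background. The species of the XPO4 construct, its promoter and whether replicate libraries came from separate cultures are not stated in the labels. The p-values therefore speak of the scatter among these libraries alone, part of which may be technical. The genes described are those whose FPKM (sequenced fragments scaled to transcript length and library size) averaged 1 or more over the 7 libraries, 11926 of 38277 genes. The other 8 libraries of the series, 4 per construct, came from cells treated with TGFβ and serve only for a comparison at the end. Values per library are given in the order 0 to 3 for the empty vector and 0 to 2 for XPO4.

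Exportin-4 is a nuclear transport receptor of the importin-β family that binds Ran and moves proteins across the nuclear pore. Its known cargo includes the TGFβ signal transducer Smad3 and the translation factor eIF5A. Hepatic stellate cells are the vitamin A-storing pericytes of the liver, which turn into collagen-producing myofibroblasts in injured tissue. They also carry pattern recognition receptors and can answer microbial ligands and interferons.

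Markers of the labelled cell type were mixed. The mesenchymal genes Vim (1921 to 2809.8 FPKM over the 7 libraries), Hand2 (34.8 to 49.0 FPKM) and Pdgfra (16.4 to 19.4 FPKM) were expressed. Des, the intermediate filament of stellate cells, was low at 0.586 to 3.26 FPKM, and Pdgfrb stayed at 0.133 to 0.767 FPKM. The retinol esterase gene Lrat was listed at 0 in every library, and Reln and Gfap were under the minimum level. Of the markers of other liver cells, all 10 hepatocyte genes and all 10 lymphocyte genes were under the minimum, and the pan-leukocyte gene Ptprc stood at 0 to 0.0340 FPKM. Of 8 cholangiocyte genes 3 reached the minimum and none was called, Spp1 at 522 to 631 FPKM, Krt19 at 3.84 to 9.19 FPKM and Krt7 at 0.534 to 4.70 FPKM, while Epcam was listed at 0. Of 10 endothelial genes Lyve1 alone reached it, at 1.10, 1.34, 1.03 and 2.13 FPKM with the empty vector and at 0.452, 0.658 and 0.556 FPKM with XPO4; its groups did not overlap and it was not called (log2 change -0.61, adjusted p = 0.242). Mesothelial genes were expressed, with Upk3b at 59.4 to 123 FPKM and Msln at 57.0 to 70.2 FPKM. In bulk RNA, fewer cells of a kind and less RNA per cell cannot be told apart.

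Xpo4 (chr14:57577521-57665430, mm10, minus strand) was at 6.83, 9.33, 8.18 and 6.09 FPKM with the empty vector and at 17.4, 13.97 and 15.7 FPKM with XPO4. The groups did not overlap, and the ratio of means was 2.06. The difference was 0.96 on the log2(FPKM + 1) scale (SE 0.15, adjusted p = 0.00669 by limma). An exact two-sided permutation test of the same difference gave p = 0.0571, the smallest value that 3 against 4 libraries allow. Xpo4 was the one called gene among 31 nuclear transport receptors and Ran system genes, of which 4 were lower at an unadjusted p under 0.05. None of 24 nucleoporin genes was called by limma, nor had any an unadjusted p under 0.05. Transcripts of its known cargo were not called either, with a log2 change of -0.29 for Smad3 (adjusted p = 0.134), -0.04 for Eif5a (adjusted p = 0.852) and -0.26 for Eif5a2 (adjusted p = 0.541). These were the 3 tested of 5 listed cargo genes, and 1 of them was lower at an unadjusted p under 0.05. The labels do not say whether the values of Tlr4 are those of a transgene. It was at 9.03, 12.7, 13.6 and 7.94 FPKM with the empty vector and at 15.3, 7.75 and 8.70 FPKM with XPO4, and its groups overlapped (log2 change -0.05, SE 0.25, adjusted p = 0.955).

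The 7 libraries were similar in scale. FPKM summed to 485449 to 526338 per library, and 11829 to 11900 genes reached 1 FPKM. Read depth is unknown. The step size of the lowest values put it at 0.927 to 1.06 times that of empty-vector library 0, but only ratios near 1 were kept. A large difference in depth could therefore not have shown. Pairwise correlations of log2 levels were 0.9582 to 0.9753. The first principal component held 31.9% of the variance and separated the constructs, and the second held 16.3% and set empty-vector library 2 apart from the other six.

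Many interferon-stimulated genes were higher with XPO4 at baseline. Of the 11926 genes tested, limma called 340 higher (2.85%) and 103 lower (0.864%) at an adjusted p under 0.05, or 3.71% in all, and 1813 had an unadjusted p under 0.05. List counts at an unadjusted p under 0.05 given below are to be read against that share. The median change over all tested genes was -0.004 on the log2 scale. By more than 2-fold, counted here and in gene counts below on the log2(FPKM + 1) scale, 160 called genes were higher and 10 were lower. Without regard to the test, the groups did not overlap in 982 genes with XPO4 higher (8.23%) and in 946 with XPO4 lower (7.93%). Leaving out 1 library moved the count of genes higher by more than 2-fold to between 136 and 161. The count of all higher genes fell to 224 when XPO4 library 0 was dropped and was 243 to 346 for any other library. The library codes in the labels follow a sequence in which the order of the groups repeats. They were split at that repeat into 2 sets, each with both constructs, which the labels do not name as batches. With the set as a block 287 genes were higher and 63 lower. Leaving out a library moved the count of lower genes more. It was 51, 50 and 54 when control library 0, 1 or 3 was dropped, 52, 46 and 57 for XPO4 library 0, 1 or 2, and 105 for control library 2. The 10 genes lower by more than 2-fold became 17 when XPO4 library 0 was dropped.

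Called genes covered all levels of expression. At empty-vector levels, 22 of the 340 higher genes stood under 1 FPKM, 82 between 1 and 10, 183 between 10 and 100, and 53 above 100. None of the lower genes stood under 1 FPKM, 20 were between 1 and 10, 60 between 10 and 100, and 23 above 100. The minimum level shaped the counts under 1 FPKM. A gene that averages 1 FPKM or more over the 7 libraries and less with XPO4 has an empty-vector mean above 1 FPKM. The 22 higher genes under 1 FPKM reached the minimum only through their XPO4 libraries. The counts under 1 FPKM therefore do not compare rises with falls. Protein-coding genes made up 305 of the 340 and 95 of the 103. The 340 higher genes held 4.49% to 4.62% of all FPKM in the empty-vector libraries and 8.88% to 9.18% in the XPO4 libraries, and the 103 lower genes went from 1.94% to 2.07% down to 1.39% to 1.43%. These shares describe the same contrast that chose the genes. Mitochondrially encoded genes held 3.34% to 4.73% and 3.40% to 3.97%.

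**Figure D1:**
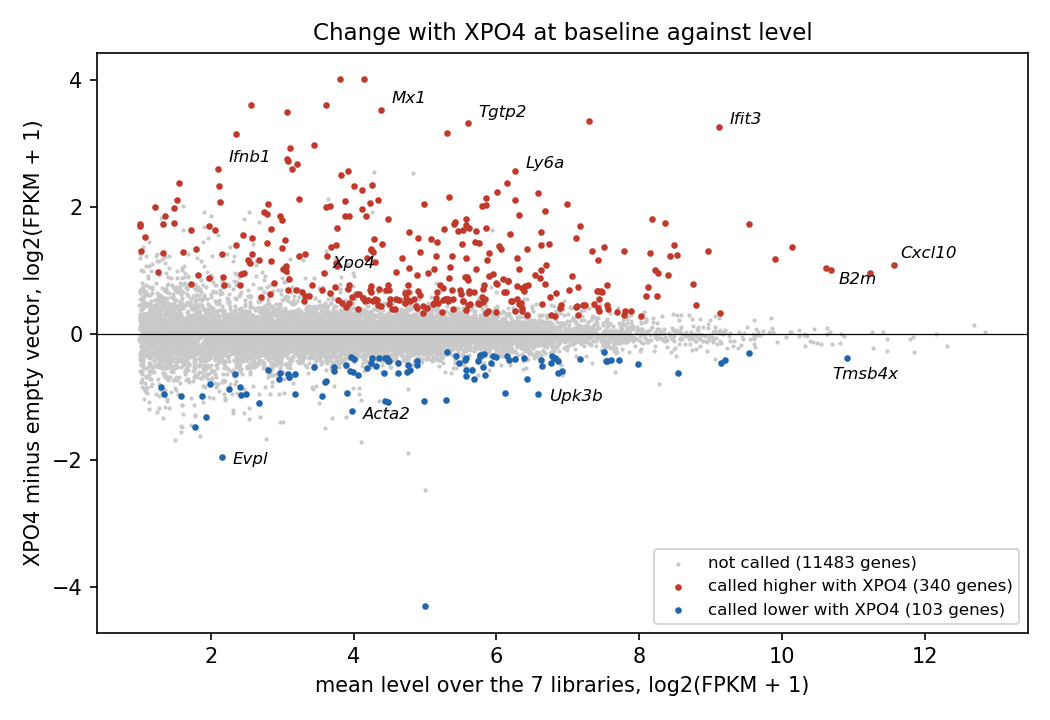
Change in log2(FPKM + 1) with XPO4 (XPO4 minus empty vector, y axis) against the mean log2(FPKM + 1) over the 7 baseline libraries (x axis), 1 point per tested gene. Red points are the 340 genes called higher and blue points the 103 called lower; the red points extend to the highest levels, as with Cxcl10 and B2m, and the lowest blue point is RNaseP_nuc at -4.3.

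Type I interferons are secreted cytokines that cells make after sensing viral or bacterial molecules. They bind the receptor of Ifnar1 and Ifnar2, whose kinases activate STAT proteins. With Irf9 these bind the interferon-stimulated response element, a motif of repeated GAAA, in the promoters of antiviral genes. Interferon-β (Ifnb1, chr4:88522025-88522774) was at 0, 0.738, 0 and 0.827 FPKM with the empty vector and at 8.28, 7.89 and 5.36 FPKM with XPO4. It was listed at 0 in 2 of the 4 empty-vector libraries and stayed under 1 FPKM there, while every XPO4 library passed 5 FPKM (log2 change 2.6, SE 0.29, adjusted p = 0.000849). Its empty-vector mean was 0.391 FPKM, so Ifnb1 reached the minimum level only through its XPO4 libraries. Ifna4, an interferon-α gene under the minimum level, had a value of 0 in each control library and 2.41, 2.78 and 1.38 FPKM in the XPO4 libraries; it was chosen after its values were seen. With no minimum level set, limma gave it a log2 change of 1.65 (SE 0.16, adjusted p = 0.00179). That p-value rests on the same values by which Ifna4 was chosen, so it adds no separate support. The other 3 interferon-α genes of the list were at 0 or under the minimum. The receptor genes did not pass the test, at a log2 change of -0.08 for Ifnar1 (adjusted p = 0.735) and 0.39 for Ifnar2 (adjusted p = 0.173).

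The core of the response element, GAAANNGAAA on either strand, was searched in RefSeq promoters (GRCm38.p6, 250 bases before to 50 after the start), which were at hand for 8081 tested genes. It stood in 3.87% of these and in 3.99% of all 27025 genes with a promoter. Among the 226 higher genes with a promoter it stood in 56 (24.8%). Among the 94 that were higher by more than 2-fold on the log2(FPKM + 1) scale it stood in 38 (40.4%). Of 67 lower genes, 1 held it. Read the other way, 56 of the 313 tested genes with the motif (17.9%) were called higher. Other motifs were searched on both strands in the same promoters. The gamma-activated site TTCNNNGAA stood in 14.2% of the higher genes, 5.97% of the lower and 8.29% of the tested genes. The AP-1 motif TGANTCA stood in 15%, 10.4% and 6.2%, the kappaB motif in 22.6%, 17.9% and 12.4%, and the CArG box in 0.885%, 0% and 1.51%. Matches of the response element overlapped a match of another motif in 10 of the 313 tested genes that held it. A match describes letters and not a bound site.

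Promoters of 4 genes of the response are shown, a ubiquitin-like modifier, an RNA-binding effector, a synthetase and a chemokine, each with matches to GAAANNGAAA or its reverse complement in capitals (RefSeq, GRCm38.p6, 5′ to 3′ on the gene's strand).
Isg15, chr4:156200769-156201068, minus strand: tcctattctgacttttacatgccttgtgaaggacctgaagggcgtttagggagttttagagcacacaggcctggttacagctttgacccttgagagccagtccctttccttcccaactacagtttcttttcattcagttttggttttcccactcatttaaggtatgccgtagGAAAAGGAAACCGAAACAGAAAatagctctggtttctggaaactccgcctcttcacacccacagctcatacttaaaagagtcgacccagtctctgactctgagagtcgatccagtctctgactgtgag
Ifit3, chr19:34583279-34583578, plus strand: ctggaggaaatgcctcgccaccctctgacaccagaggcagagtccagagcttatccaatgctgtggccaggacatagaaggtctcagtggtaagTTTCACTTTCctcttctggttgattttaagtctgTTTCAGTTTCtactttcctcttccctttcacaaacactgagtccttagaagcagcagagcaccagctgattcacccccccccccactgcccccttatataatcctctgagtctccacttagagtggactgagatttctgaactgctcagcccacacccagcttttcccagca
Oas3, chr5:120777610-120777909, minus strand: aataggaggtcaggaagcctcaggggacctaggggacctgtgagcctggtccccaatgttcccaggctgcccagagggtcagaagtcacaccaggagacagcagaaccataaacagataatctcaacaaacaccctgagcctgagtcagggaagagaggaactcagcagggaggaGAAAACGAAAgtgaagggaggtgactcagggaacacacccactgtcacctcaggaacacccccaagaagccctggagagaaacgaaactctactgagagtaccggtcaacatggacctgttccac
Cxcl10, chr5:92348840-92349139, minus strand: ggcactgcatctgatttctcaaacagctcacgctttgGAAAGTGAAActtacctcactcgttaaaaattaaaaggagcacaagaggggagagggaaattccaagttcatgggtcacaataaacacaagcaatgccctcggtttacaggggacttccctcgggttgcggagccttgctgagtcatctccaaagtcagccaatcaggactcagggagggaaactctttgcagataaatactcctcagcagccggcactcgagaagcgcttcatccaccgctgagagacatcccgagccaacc
Isg15 held 3 overlapping matches that began 78, 72 and 66 bases before the start. Ifit3 had 2, of which the nearer began 122 bases before, Oas3 had 1 at 75 bases and Cxcl10 1 at 213 bases. All 4 were picked by hand and held the motif, unlike most higher genes with a promoter, of which 56 of 226 (24.8%) held it.

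The 4 genes rose to different extents. Isg15, the ubiquitin-like modifier that is attached to proteins in infected cells, was at 1100.5, 1186, 946 and 1115 FPKM with the empty vector and at 2271, 2158 and 2239.7 FPKM with XPO4. Each XPO4 library stood near 2-fold the empty-vector level (log2 change 1.04, SE 0.08, adjusted p = 0.000105). Ifit3, which binds other Ifit proteins on viral RNA, was at 114, 117, 114 and 128 FPKM with the empty vector and at 1199, 1139 and 1085 FPKM with XPO4. The means were 9.65-fold apart, with the smallest adjusted p of the genes named here (log2 change 3.26, SE 0.07, adjusted p = 1.01e-07). Oas3, a synthetase of the antiviral 2-5A messenger, was at 3.03, 4.35, 8.19 and 4.97 FPKM with the empty vector and at 29.2, 27.4 and 28.5 FPKM with XPO4 (log2 change 2.32, SE 0.24, adjusted p = 0.000529). The chemokine Cxcl10 was already among the most abundant transcripts, at 2134, 2024, 2032 and 1992 FPKM with the empty vector and at 4571, 4259 and 4182 FPKM with XPO4 (log2 change 1.08, SE 0.06, adjusted p = 1.31e-05). It gained more FPKM than any other gene that the naming rule could pick.

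Several transcription factors of the pathway rose. Of 12 IRF and STAT genes tested, 4 were called higher and none lower, with a median log2 change of 0.4. Irf7, which drives interferon-α genes, was at 137, 135, 127 and 158.3 FPKM with the empty vector and at 508, 481 and 473 FPKM with XPO4, with no overlap (log2 change 1.8, SE 0.08, adjusted p = 5.45e-06). Stat2 was at 39.2, 37.7, 39.9 and 41.2 FPKM with the empty vector and at 103, 98.1 and 102 FPKM with XPO4, and its groups did not overlap either (log2 change 1.34, SE 0.06, adjusted p = 6.65e-06). Irf1 rose by 0.77 (adjusted p = 0.000246). The other 8 were not called, including Irf3, the constitutive partner of the viral sensors (log2 change 0.05, adjusted p = 0.92), and Irf9 (0.43, adjusted p = 0.0761).

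Some sensors of nucleic acids rose. Of 16 tested, 8 were called higher, and 6 to 8 were so with any 1 library left out. Zbp1, a sensor of Z-form nucleic acid, was at 18.7, 26.7, 24.5 and 26.5 FPKM with the empty vector and at 118, 117 and 113 FPKM with XPO4 (log2 change 2.23, SE 0.12, adjusted p = 1.18e-05). Tlr3, the endosomal receptor of double-stranded RNA, was at 7.81, 9.82, 12.3 and 9.49 FPKM with the empty vector and at 38.5, 39.2 and 31.9 FPKM with XPO4 (log2 change 1.8, SE 0.14, adjusted p = 0.00011). In both, every XPO4 library stood more than 2-fold above every empty-vector library. Among cytosolic RNA sensors, Dhx58 rose by 1.43, Ddx58 by 0.86 and Ifih1 by 0.76 on the log2 scale (adjusted p = 1.31e-05, 0.000212 and 0.000494). Trex1, which degrades cytosolic DNA, rose by 1.16 (adjusted p = 5.15e-05). Of the TLR4 receptor complex, none of 6 genes was called by limma, and 1 was higher at an unadjusted p under 0.05.

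Effectors that block viral replication rose in nearly all members tested. All 3 tested Ifit genes were called higher, as were 8 of 9 genes of the 2-5A system and 15 of 17 Mx and membrane effectors. Median log2 changes were 1.41, 1.5 and 1.08. Mx1, a dynamin-like GTPase that blocks influenza viruses, was at 3.37, 3.12, 2.21 and 2.49 FPKM with the empty vector and at 44.3, 43.6 and 39.7 FPKM with XPO4, a 15.2-fold ratio of means (log2 change 3.53, SE 0.13, adjusted p = 2.77e-06). Rsad2, known as viperin, was at 46.0, 52.2, 65.4 and 49.1 FPKM with the empty vector and at 216, 239 and 212 FPKM with XPO4 (log2 change 2.05, SE 0.12, adjusted p = 1.49e-05). Bst2, which tethers budding virions, was at 690.2, 748, 523 and 736 FPKM with the empty vector and at 1662, 1892 and 1639.8 FPKM with XPO4 (log2 change 1.37, SE 0.13, adjusted p = 0.000275). Ifitm3, which restricts viral entry, was at 1752, 1784, 1534 and 1768 FPKM with the empty vector and at 3212, 3588 and 3162 FPKM with XPO4 (log2 change 0.96, SE 0.08, adjusted p = 0.000121). In these 4 genes no XPO4 library overlapped an empty-vector library.

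Families of interferon-inducible GTPases and nuclear proteins had the highest medians of the 77 gene lists examined. All 5 tested guanylate-binding proteins were called higher (median log2 change 1.91), 7 of 8 immunity-related GTPases (median 1.78), 6 of 7 HIN-200 genes (median 1.65) and all 5 tested Schlafen genes (median 1.66). Iigp1, a GTPase that acts on vacuoles of intracellular parasites, was at 6.68, 6.78, 11.01 and 8.13 FPKM with the empty vector and at 80.6, 83.8 and 74.3 FPKM with XPO4 (log2 change 3.16, SE 0.16, adjusted p = 6.82e-06). Igtp, of the same family, was at 51.0, 44.3, 43.0 and 44.4 FPKM with the empty vector and at 178, 185 and 168 FPKM with XPO4 (log2 change 1.93, SE 0.08, adjusted p = 4.58e-06). The guanylate-binding protein Gbp3 was at 21.4, 23.2, 22.6 and 22.9 FPKM with the empty vector and at 106, 104 and 97.8 FPKM with XPO4 (log2 change 2.14, SE 0.07, adjusted p = 1.46e-06). In these 3 genes every XPO4 library stood more than 2-fold above every empty-vector library. Slfn4 rose by 2.67 (adjusted p = 1.62e-05) and Pyhin1 by 2.6 (adjusted p = 1.62e-05). Tgtp2 and Tgtp1, a pair of close copies, rose by 3.32 and 2.57 (adjusted p = 0.000322 and 5.16e-05). Aim2, a HIN-200 inflammasome sensor, was not called (log2 change 0.03). The Schlafen count was 4 to 5 with 1 library left out. Ifi27l1, from another interferon-inducible family, was called lower. It was at 51.3, 43.5, 41.5 and 60.9 FPKM with the empty vector and at 18.2, 31.6 and 21.9 FPKM with XPO4, without overlap (log2 change -1.04, SE 0.19, adjusted p = 0.0203), and its call ended with an adjusted p of 0.0622 and 0.0512 when control library 0 or 3 was dropped and 0.0755 and 0.0801 when XPO4 library 0 or 2 was dropped. Many members of the GTPase, HIN-200 and Schlafen families resemble each other closely, and the handling of fragments that match several copies is not stated, so values of single members are uncertain.

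The ISG15 conjugation system rose as a whole: 6 of 6 genes were called higher, and 5 to 6 with 1 library left out. Usp18, the protease that removes ISG15 and restrains the interferon receptor, was at 25.5, 24.1, 24.3 and 23.2 FPKM with the empty vector and at 82.6, 85.4 and 70.8 FPKM with XPO4 (log2 change 1.67, SE 0.08, adjusted p = 8.16e-06). Ube2l6, its conjugating enzyme, was at 103, 105, 111 and 109 FPKM with the empty vector and at 273, 299.6 and 263 FPKM with XPO4 (log2 change 1.37, SE 0.07, adjusted p = 6.77e-06). Neither gene overlapped between the groups. The feedback inhibitor Socs1 was the one called gene of 10 SOCS and feedback genes (log2 change 1.2, SE 0.23, adjusted p = 0.0249), a call that ended with an adjusted p of 0.0698 and 0.0543 when control library 1 or 3 was dropped and 0.0852, 0.0747 and 0.0988 when XPO4 library 0, 1 or 2 was dropped. PARP family genes split by member. Parp9, Parp10, Parp11, Parp12, Parp14 and Dtx3l, the partner of Parp9, were called higher, with log2 changes of 0.94 to 1.49, while the other 7 of 13, Parp1 among them (-0.21), were not called. Of 20 TRIM genes, 9 rose, with Trim30a at 1.38 (adjusted p = 0.000212) and Trim21, an intracellular antibody receptor, at 1.29 (adjusted p = 6.1e-05).

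Antigen presentation by MHC class I rose at several steps. Of 22 genes tested, 15 were called higher, a count that held at 15 with each library left out, and the median log2 change was 1.4. The heavy chain H2-K1 was at 359, 371, 331 and 432 FPKM with the empty vector and at 1311, 1127 and 1271 FPKM with XPO4 (log2 change 1.73, SE 0.10, adjusted p = 1.4e-05). Its light chain B2m was at 1091, 1054, 1257 and 1209.7 FPKM with the empty vector and at 2399, 2353 and 2174 FPKM with XPO4, close to 2-fold (log2 change 1.0, SE 0.08, adjusted p = 0.000105). Tap1, of the peptide transporter, was at 25.003, 22.5, 19.0 and 25.7 FPKM with the empty vector and at 78.5, 75.9 and 78.6 FPKM with XPO4 (log2 change 1.72, SE 0.11, adjusted p = 2.07e-05). Groups did not overlap in any of the 3. Nlrc5, the transactivator of class I genes, rose by 1.86 (adjusted p = 8.16e-06) and the immunoproteasome subunit Psmb9 by 2.0 (adjusted p = 0.00047). The immunoproteasome subunits Psmb8 (0.53) and Psmb10 (0.73) were not called. None of 30 constitutive proteasome genes was called by limma, and 1 was lower at an unadjusted p under 0.05. The checkpoint ligand Cd274 (PD-L1) was at 2.09, 2.24, 2.42 and 2.12 FPKM with the empty vector and at 11.7, 10.1 and 10.7 FPKM with XPO4 (log2 change 1.88, SE 0.12, adjusted p = 2.26e-05). The class II chains of the lists were under the minimum level.

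**Figure D2:**
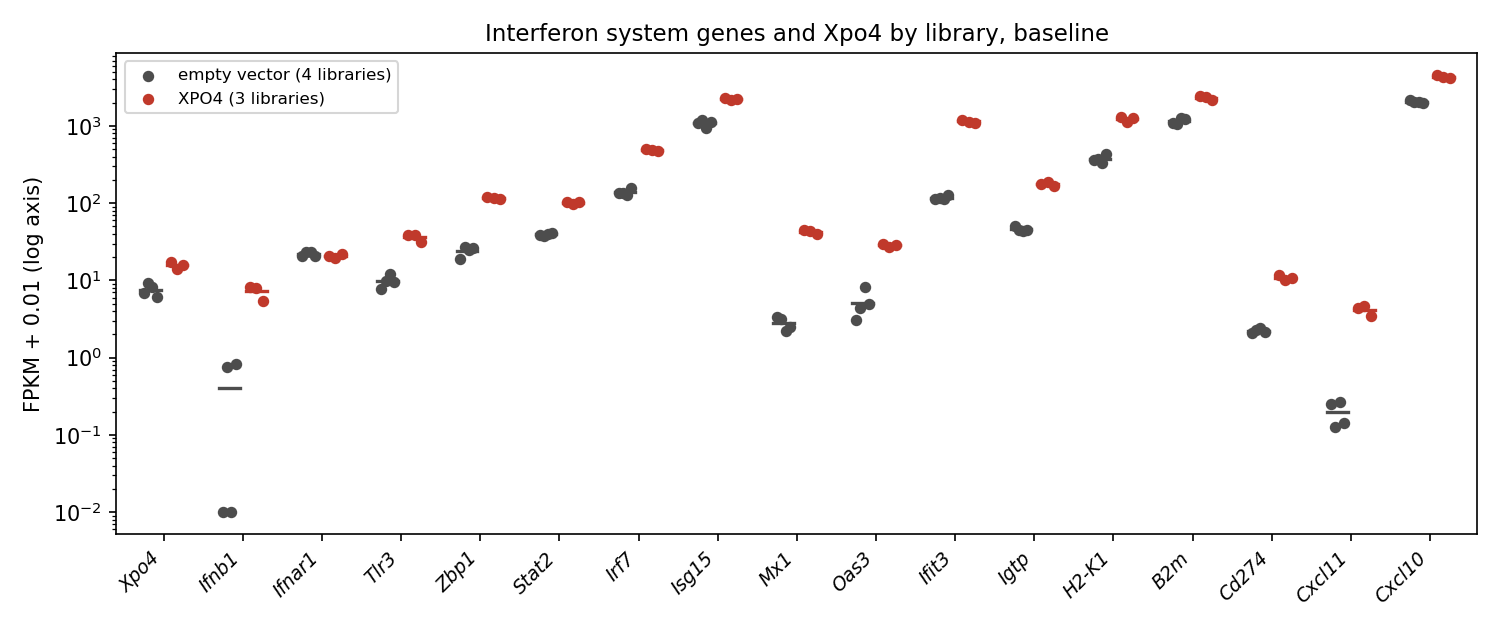
FPKM + 0.01 on a log axis for Xpo4 and 16 genes of the interferon system in the 7 baseline libraries. Grey points are the 4 empty-vector libraries, red points the 3 XPO4 libraries, and bars are group means; the groups are apart in each gene except Ifnar1.

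Several chemokines that draw monocytes and T cells rose. Of 6 CC chemokines tested 3 were called higher, and of 5 CXC genes 3. Ccl2, the main monocyte attractant, was at 59.4, 53.7, 51.0 and 42.9 FPKM with the empty vector and at 165.2, 177 and 133 FPKM with XPO4 (log2 change 1.6, SE 0.13, adjusted p = 0.000116). Ccl7 was at 20.8, 18.1, 21.7 and 20.2 FPKM with the empty vector and at 77.2, 68.8 and 65.7 FPKM with XPO4 (log2 change 1.76, SE 0.09, adjusted p = 8.16e-06) and Ccl5 at 205, 191, 216 and 216 FPKM with the empty vector and at 435, 406 and 412 FPKM with XPO4 (log2 change 1.01, SE 0.07, adjusted p = 3.32e-05). All 3 rose without overlap. Cxcl11, which shares a receptor with Cxcl10, was at 0.240, 0.115, 0.254 and 0.131 FPKM with the empty vector and at 4.41, 4.60 and 3.44 FPKM with XPO4, under 1 FPKM in each empty-vector library (log2 change 2.11, SE 0.19, adjusted p = 0.000239). Cxcl11 thus reached the minimum level only through its XPO4 libraries. The call for Cxcl12, which binds Cxcr4, ended with an adjusted p of 0.0532 and 0.0698 when XPO4 library 0 or 1 was dropped (log2 change 0.65).

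Cytokines and NF-kB feedback genes changed less. Il6, Il18bp and Csf1 were the 3 called of 9 interleukins and stromal cytokines, a count of 1 when control library 0 or 3 or XPO4 library 1 was dropped and 0 when control library 1 or XPO4 library 0 or 2 was dropped. Il6 was at 0.361, 0.689, 1.61 and 0.999 FPKM with the empty vector and at 3.03, 4.07 and 3.65 FPKM with XPO4 (log2 change 1.29, SE 0.24, adjusted p = 0.0222), so that the groups did not overlap, but its call ended with an adjusted p of 0.065 and 0.0512 when control library 1 or 3 was dropped and 0.064, 0.106 and 0.0895 when XPO4 library 0, 1 or 2 was dropped. The empty-vector mean of Il6 was under the minimum level, which it reached only through its XPO4 libraries. Tnfaip3, the one called gene of 16 NF-kB genes (log2 change 0.56), kept its call only when empty-vector library 2 was the one left out, and otherwise had an adjusted p of 0.115, 0.0906 and 0.0919 when control library 0, 1 or 3 was dropped and 0.146, 0.0715 and 0.149 when XPO4 library 0, 1 or 2 was dropped. None of 8 prostaglandin genes was called by limma, with 1 higher and 1 lower at an unadjusted p under 0.05.

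Death and stress genes rose in part. Of 23 cell death genes 6 were called higher. Mlkl, which ruptures the membrane in necroptosis, was at 97.1, 102, 94.2 and 89.0 FPKM with the empty vector and at 178, 186 and 176 FPKM with XPO4 (log2 change 0.91, SE 0.07, adjusted p = 6.51e-05). Casp4 (caspase-11), the receptor of cytosolic lipopolysaccharide, was at 7.39, 7.12, 10.3 and 8.29 FPKM with the empty vector and at 19.7, 16.5 and 18.6 FPKM with XPO4 (log2 change 1.06, SE 0.13, adjusted p = 0.00208). Both were apart in every library. Xaf1 and Daxx rose by 1.42 and 1.51 (adjusted p = 4.81e-05 and 0.000125). The initiator Casp8 was not called (log2 change 0.11). Of 28 p53 targets 6 were called higher, and 2 when XPO4 library 0 was dropped and 3 when XPO4 library 1 was dropped. Cdkn1a, the p21 inhibitor of cyclin-dependent kinases, was at 228, 219.7, 195 and 223 FPKM with the empty vector and at 368, 379.7 and 331 FPKM with XPO4 (log2 change 0.73, SE 0.08, adjusted p = 0.000741), while Trp53 itself was not called (0.2). Of 25 genes of the integrated stress response 6 were called higher, and 3 when control library 1 or XPO4 library 0, 1 or 2 was dropped. Ddit3 (CHOP) was at 59.7, 65.1, 62.9 and 69.2 FPKM with the empty vector and at 119, 115 and 93.1 FPKM with XPO4 (log2 change 0.75, SE 0.10, adjusted p = 0.0027). Sesn2, which is in both of the last lists, and Atf3 rose by 0.65 and 0.66 (adjusted p = 0.00315 and 0.000448). The ER chaperone list had none of 22 genes called by limma (at an unadjusted p under 0.05, 1 higher and 2 lower), and neither had the NRF2 targets (0 of 18, with 1 higher and 1 lower at an unadjusted p under 0.05).

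Other single rises were spread over functions. Of 23 immediate early genes 4 were called, and 2 when control library 1 or 3 or XPO4 library 0 or 1 was dropped. The transcription factor Egr1 was at 53.3, 52.3, 51.5 and 54.8 FPKM with the empty vector and at 91.6, 97.2 and 96.2 FPKM with XPO4 (log2 change 0.83, SE 0.06, adjusted p = 7.52e-05). The mesenchymal factor Foxf1 was at 3.42, 5.42, 5.61 and 6.69 FPKM with the empty vector and at 17.6, 13.3 and 10.8 FPKM with XPO4; its groups did not overlap, yet its call (log2 change 1.25, SE 0.21, adjusted p = 0.0131) ended with an adjusted p of 0.0606 and 0.0547 when XPO4 library 0 or 1 was dropped. Mmp13, a collagenase, was at 19.9, 19.2, 23.5 and 18.3 FPKM with the empty vector and at 31.7, 34.1 and 30.1 FPKM with XPO4 (log2 change 0.64, SE 0.10, adjusted p = 0.00789). Npc2, which carries cholesterol out of lysosomes, was at 145, 146, 134 and 135 FPKM with the empty vector and at 216, 235 and 218 FPKM with XPO4 (log2 change 0.67, SE 0.07, adjusted p = 0.00041). In these 4 genes every XPO4 library was above every empty-vector library. Ly6a (Sca-1) rose by 2.56 (adjusted p = 1.55e-05), and Mpeg1, a pore-forming protein best known from macrophages, by 2.75 (adjusted p = 1.01e-05). Of 11 macrophage markers the 3 that were tested, Cd68 (4.28 to 6.10 FPKM), Csf1r (2.47 to 4.58 FPKM) and Lyz2 (0.370 to 2.49 FPKM), were not called, and their log2 changes were -0.22, -0.11 and -0.45.

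Fewer genes fell with XPO4 than rose, and 10 of those lower fell by more than 2-fold on the log2(FPKM + 1) scale. Mean FPKM fell by more than 2-fold in further called genes, such as S100a14 with an XPO4 to empty-vector ratio of 0.377. Evpl, which codes for envoplakin of the cornified envelope and desmosomes, had the largest fall of the genes named by the rule. It was at 6.44, 6.52, 4.28 and 4.96 FPKM with the empty vector and at 0.588, 0.733 and 0.704 FPKM with XPO4, under 1 FPKM in every XPO4 library (log2 change -1.95, SE 0.18, adjusted p = 0.000246). Of 12 mesothelial and keratin genes 4 were called lower, also with each library left out, and the median log2 change was -0.55. The uroplakin genes Upk1b and Upk3b, membrane proteins of urothelium and mesothelium, were called lower. Upk3b was at 118, 123, 117 and 122 FPKM with the empty vector and at 59.4, 60.7 and 63.8 FPKM with XPO4 (log2 change -0.96, SE 0.06, adjusted p = 2.48e-05). Upk1b was at 37.9, 34.3, 43.3 and 43.9 FPKM with the empty vector and at 17.5, 20.01 and 18.0 FPKM with XPO4 (log2 change -1.06, SE 0.11, adjusted p = 0.000448). Krt14, a basal keratin, was at 87.3, 89.3, 79.8 and 88.9 FPKM with the empty vector and at 45.9, 45.2 and 42.6 FPKM with XPO4, and the spread within each group was small beside the gap (log2 change -0.94, SE 0.07, adjusted p = 7.52e-05). Gpm6a fell by 0.93 (adjusted p = 0.00472). Msln was not called (log2 change -0.15, adjusted p = 0.356), nor was Wt1, a transcription factor of the mesothelium (-0.69, adjusted p = 0.14).

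The contractile and matrix genes that mark stellate cell activation fell in a few members. Of 19 contractile genes Acta2 and Tagln were called lower. Acta2 (α-smooth muscle actin) was at 21.4, 18.8, 18.9 and 19.98 FPKM with the empty vector and at 6.39, 8.01 and 9.69 FPKM with XPO4, with no overlap (log2 change -1.22, SE 0.13, adjusted p = 0.000719). Tagln was at 114, 96.4, 90.9 and 107 FPKM with the empty vector and at 57.4, 70.6 and 57.7 FPKM with XPO4 (log2 change -0.71, SE 0.11, adjusted p = 0.00574). Acta2 (chr19:34241090-34255590) lies in the same 1 Mb stretch of chromosome 19 as the Ifit genes, in which 6 of 11 tested genes were higher and Acta2 alone lower. Among collagens Col6a1 and Col6a2, which form collagen VI, were called lower. Col6a1 was at 66.0, 67.3, 64.8 and 69.0 FPKM with the empty vector and at 38.6, 39.1 and 48.3 FPKM with XPO4 (log2 change -0.66, SE 0.09, adjusted p = 0.00323), and Col6a2 fell by 0.57 (adjusted p = 0.00604). Col3a1 was at 21.9, 24.9, 26.9 and 23.5 FPKM with the empty vector and at 13.8, 15.9 and 16.7 FPKM with XPO4 (log2 change -0.62, SE 0.10, adjusted p = 0.0109), a call that ended with an adjusted p of 0.0546 when XPO4 library 0 was dropped. Col1a1 and Col1a2, the chains of collagen I, were not called (log2 changes -0.34 and -0.14, adjusted p = 0.0557 and 0.767). Col1a1 passed the threshold after quantile normalization (adjusted p = 0.0249), on the TPM scale (0.0248) and with a minimum mean of 5 FPKM (0.0483).

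Other matrix genes fell one by one. Fn1 (fibronectin) was at 136, 128, 146 and 131 FPKM with the empty vector and at 86.4, 80.6 and 96.1 FPKM with XPO4 (log2 change -0.62, SE 0.08, adjusted p = 0.00249). The basement membrane linker Nid2 was at 12.8, 14.6, 14.3 and 12.9 FPKM with the empty vector and at 7.45, 7.27 and 8.10 FPKM with XPO4 (log2 change -0.77, SE 0.10, adjusted p = 0.00199), while its relative Nid1 was not called (-0.09). Both groups were apart for Fn1 and Nid2. Lox, the collagen crosslinking oxidase, was called lower (log2 change -0.43, SE 0.09, adjusted p = 0.033), but had an adjusted p of 0.0902 when control library 1 was dropped and 0.11, 0.126 and 0.0946 when XPO4 library 0, 1 or 2 was dropped. Timp1, the inhibitor of metalloproteinases that is often used as a fibrosis marker, was not called (0.27, adjusted p = 0.58). Tgfb1 was not called (-0.11, adjusted p = 0.728), and none of 17 TGFβ ligand and receptor genes was called by limma, with 2 higher and 1 lower at an unadjusted p under 0.05.

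**Figure D3:**
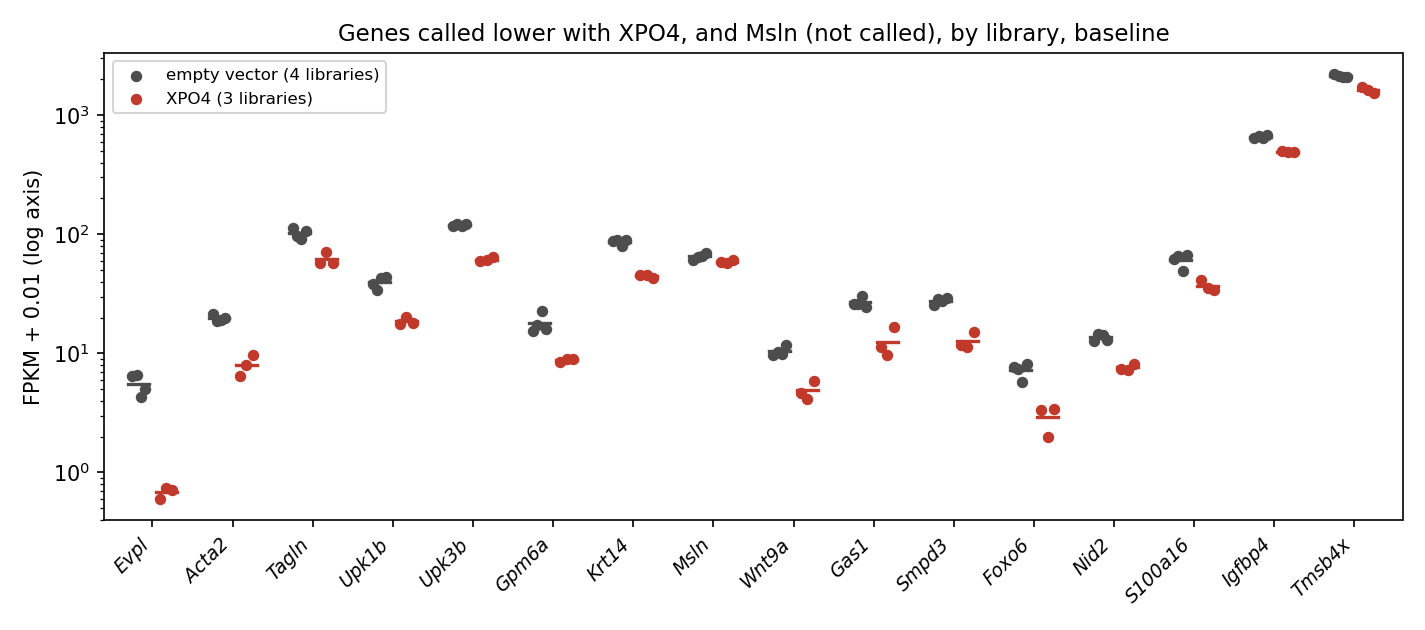
FPKM + 0.01 on a log axis for 15 genes called lower with XPO4 and for Msln, which was not called, in the 7 baseline libraries. Grey points are the 4 empty-vector libraries, red points the 3 XPO4 libraries, and bars are group means; Evpl shows the widest gap and Tmsb4x the highest level.

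Single genes of several signalling lists fell. Wnt9a, a Wnt ligand, was at 9.62, 10.2, 9.85 and 11.8 FPKM with the empty vector and at 4.67, 4.15 and 5.85 FPKM with XPO4 (log2 change -0.96, SE 0.13, adjusted p = 0.00353) and was the one gene called of 19. Gas1, a Hedgehog co-receptor, was at 26.1, 26.2, 30.5 and 24.3 FPKM with the empty vector and at 11.3, 9.65 and 16.6 FPKM with XPO4 (log2 change -1.07, SE 0.17, adjusted p = 0.00722), the one of 8 in its list. Smpd3, which makes ceramide from sphingomyelin, was at 25.4, 28.8, 27.2 and 29.3 FPKM with the empty vector and at 11.7, 11.3 and 15.1 FPKM with XPO4 (log2 change -1.08, SE 0.11, adjusted p = 0.000658), the one of 18. Groups were separate in each, and XPO4 library 2 was the nearest to the empty-vector libraries. These single calls were 5.26% of the Wnt list, 12.5% of the Hedgehog list and 5.56% of the sphingolipid list. Over all tested genes 3.71% were called and 0.864% were called lower. At an unadjusted p under 0.05 by limma, the Wnt list had 2 genes higher and 6 lower. The calls describe single genes and not pathways. Foxo6, a forkhead factor, fell by 1.09 (adjusted p = 0.0107), and Foxo1, Foxo3 and Foxo4 were not called. Igfbp4, a secreted binder of insulin-like growth factors, was at 649, 670.0, 644 and 678 FPKM with the empty vector and at 498, 494 and 493 FPKM with XPO4 (log2 change -0.41, SE 0.05, adjusted p = 0.00227). Of 19 S100 and annexin genes 2 were called lower. The calcium-binding gene S100a14 was at 3.53, 3.67, 3.47 and 3.97 FPKM with the empty vector and at 1.53, 0.846 and 1.76 FPKM with XPO4 (log2 change -0.99, SE 0.18, adjusted p = 0.0183), with an adjusted p of 0.0554, 0.0595 and 0.0603 when control library 0, 1 or 3 was dropped and 0.0537 and 0.0506 when XPO4 library 0 or 1 was dropped. S100a16, of the same family, was at 61.5, 65.2, 49.4 and 67.1 FPKM with the empty vector and at 41.0, 35.2 and 33.7 FPKM with XPO4 (log2 change -0.71, SE 0.12, adjusted p = 0.0116), with an adjusted p of 0.0564 and 0.056 when XPO4 library 1 or 2 was dropped.

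A pair of desaturases of fatty acid synthesis fell. Scd2 was at 427, 454, 457 and 413 FPKM with the empty vector and at 276, 282 and 295 FPKM with XPO4 (log2 change -0.62, SE 0.06, adjusted p = 0.000489), and Scd1 fell by 0.51 (adjusted p = 0.00945). Both kept their call with each library left out. The list of 24 had 1 more lower call, Elovl6, whose adjusted p became 0.0691, 0.122, 0.0631 and 0.0749 when control library 0, 1, 2 or 3 was dropped and 0.168, 0.166 and 0.0837 when XPO4 library 0, 1 or 2 was dropped. Fasn was not called (0.0). Of the genes that the naming rule could pick, the largest loss of FPKM was in Tmsb4x, an actin-binding peptide gene. Tmsb4x was at 2209, 2115, 2112 and 2106 FPKM with the empty vector and at 1717, 1617 and 1543 FPKM with XPO4 (log2 change -0.39, SE 0.06, adjusted p = 0.00654). Its adjusted p was 0.107 when no minimum level was set.

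Growth and housekeeping lists held few calls or none. Of 31 mitosis genes Ccnb2 and Mybl2 were called lower, at -0.44 and -0.39, and 7 were lower and 0 higher at an unadjusted p under 0.05. The adjusted p of Ccnb2 was 0.108, 0.104, 0.0654 and 0.0641 when control library 0, 1, 2 or 3 was dropped and 0.164 and 0.136 when XPO4 library 0 or 1 was dropped, and that of Mybl2 was 0.0828, 0.0889 and 0.0804 when control library 0, 1 or 3 was dropped and 0.0828, 0.1 and 0.118 when XPO4 library 0, 1 or 2 was dropped. None of 39 replication genes was called by limma, with 5 higher and 1 lower at an unadjusted p under 0.05. The corresponding figures were 0 of 70 ribosomal protein genes (3 and 0), 0 of 38 translation initiation factors (1 and 5), 0 of 68 nuclear respiratory genes (3 and 4) and 0 of 13 listed mitochondrially encoded genes (0 and 0). For comparison, 1813 of all 11926 tested genes had an unadjusted p under 0.05 in either direction. No list was tested against that share. The mitochondrial ribosomal RNA gene mt-Rnr1, which is not among those 13, was called higher. All 77 lists together held 1144 tested genes, and 170 of the 443 called genes were in a list.

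**Figure D4:**
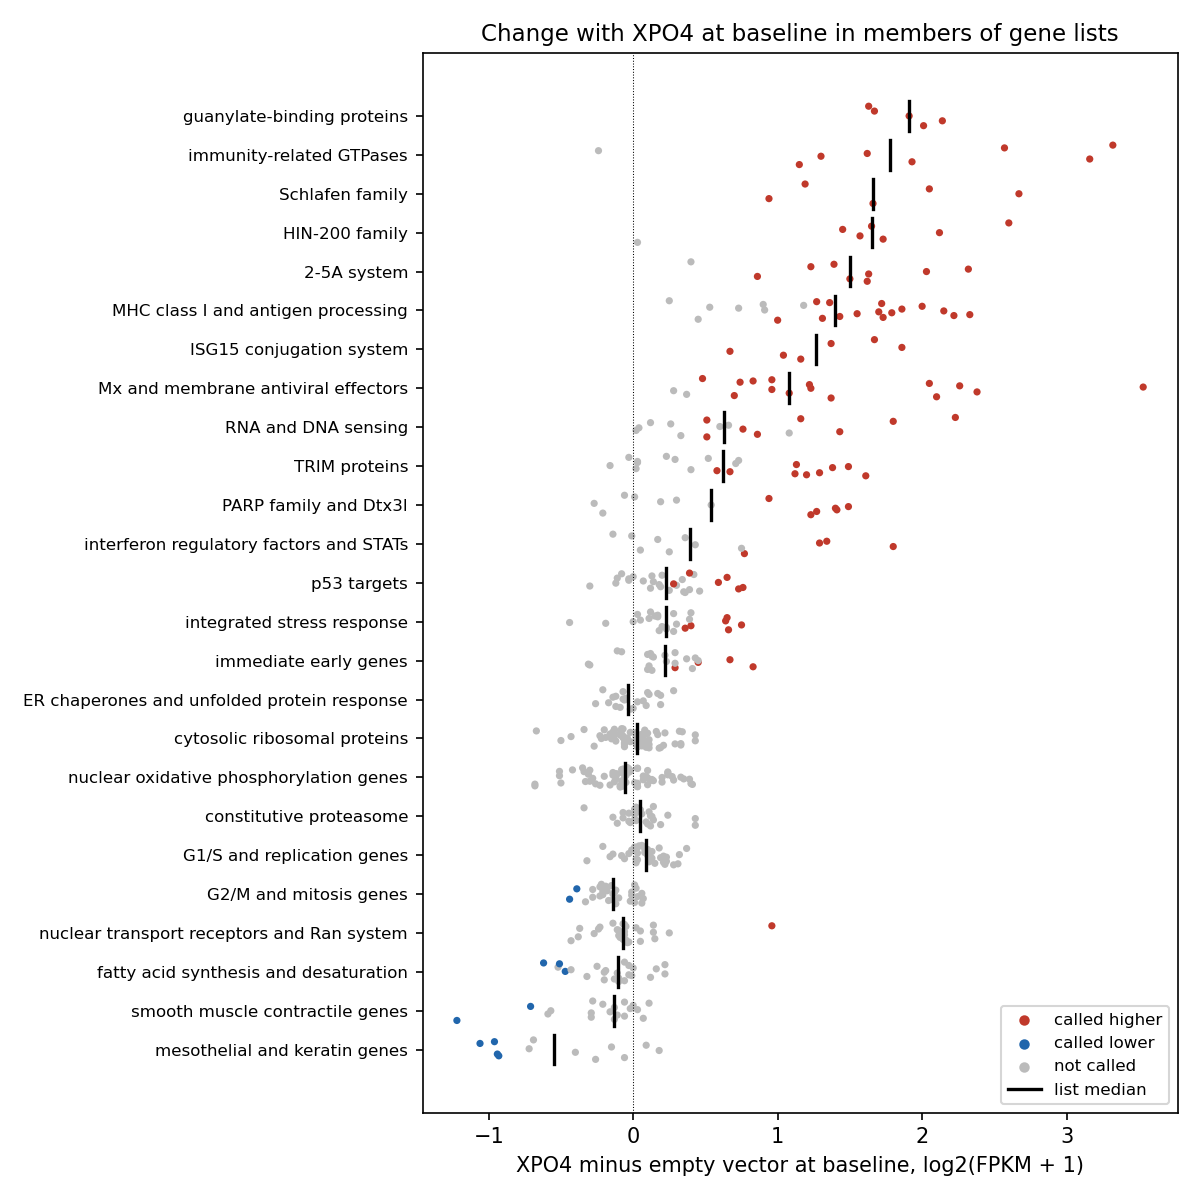
Change in log2(FPKM + 1) with XPO4 at baseline for the tested members of selected gene lists, 1 point per gene and 1 row per list. Red points were called higher, blue points lower and grey points not called, and black bars are list medians; medians run from 1.91 for guanylate-binding proteins to -0.55 for mesothelial and keratin genes.

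Some higher genes lay in clusters along the genome, and many others were the only higher gene of their 1 Mb window. Within 1 Mb windows by gene start, chromosome 1 from 173000001 to 174000000 held 11 tested genes, of which 10 were called higher, the HIN-200 genes Ifi203, Ifi204, Mnda, Mndal and Pyhin1 among them. Chromosome 5 from 120000001 to 121000000 held 6 higher of 13 tested, all 6 of them Oas genes. Chromosome 7 from 104000001 to 105000000 held 5 of 12, all Trim genes, and chromosome 1 from 85000001 to 86000000 held 7 of 16, with Sp100 and Sp110. In the class I region, chromosome 17 from 36000001 to 37000000 held 5 of 12. These windows were chosen after their counts were seen.

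Some tested genes were under 1 FPKM with one construct and at 1 FPKM or more with the other. Among tested genes, 27 were under 1 FPKM in every empty-vector library and at 1 FPKM or more in every XPO4 library, and 18 of them were called. These 27 reached the minimum mean only through their XPO4 libraries, and genes under that minimum, such as Ifna4, are not counted. The opposite pattern had 12 genes, 3 of them called. Sdc3, a heparan sulfate proteoglycan chosen here after its values were seen, was at 0.153, 0.300, 0.0390 and 0.193 FPKM with the empty vector and at 2.12, 2.38 and 2.54 FPKM with XPO4 (log2 change 1.52, SE 0.20, adjusted p = 0.00323). Pydc4, a pyrin-domain gene, was at 0, 0.116, 0.0672 and 0 FPKM with the empty vector and at 3.83, 4.54 and 5.02 FPKM with XPO4 (log2 change 2.38, SE 0.19, adjusted p = 0.000111). In each the XPO4 libraries lay close together. Other calls of this kind were uneven within the XPO4 group. COX17, which the table lists under this symbol in capitals, had a value of 0 in each control library and 11.7, 76.2 and 3.27 FPKM in the XPO4 libraries. Its adjusted p of 0.0268 became 0.0694, 0.0704, 0.0722 and 0.071 when control library 0, 1, 2 or 3 was dropped, and 0.0815 for XPO4 library 0. RNase_MRP, a short structural RNA, also had 0 in each control library, and 6.21, 3.96 and 18.7 FPKM in the XPO4 libraries. RNaseP_nuc, another such RNA, was at 19.2, 37.1, 32.2 and 120.5 FPKM with the empty vector and at 0, 8.68 and 0 FPKM with XPO4 (log2 change -4.3, SE 0.86, adjusted p = 0.0287). This was the largest change of any called gene in either direction and the lowest point in the plot of change against level. Its call ended, at an adjusted p of 0.0717, 0.0692 and 0.0652, when control library 1, 2 or 3 was dropped, and at 0.119 and 0.106 for XPO4 library 0 or 2. Both RNA symbols stand on several rows of the table, of which these are the rows that were tested, and both were chosen after their values were seen. The libraries were poly(A)-selected per the labels' protocols, so the values of such RNAs are uncertain.

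The same construct was also compared in cells treated with TGFβ, whose dose and duration the labels do not give. Those 8 libraries are separate from the 7 at baseline but may share their cell stocks. There limma called 346 of 11976 genes higher (2.89%) and 102 lower (0.852%) with XPO4, or 3.74% in all. Of these calls 77.2% were higher, and 66.4% were higher on the TPM scale. The lower count was 60, 56 and 54 when TGFβ control library 0, 1 or 3 was dropped, and 61 and 62 for TGFβ XPO4 library 0 or 3. Higher in both were 256 genes, 75.3% of the baseline set and 74.0% of the TGFβ set. Lower in both were 48 genes, 46.6% and 47.1%. Of 442 baseline calls tested with TGFβ, 13 had the opposite sign there. RNase_MRP was one of them, at 3.15 at baseline and -1.75 with TGFβ (adjusted p = 0.435). The change of COX17 was 4.01 at baseline and 0.14 with TGFβ (adjusted p = 0.979). Over 11746 genes tested in both, the log2 changes had a Pearson r of 0.66 and a Spearman rho of 0.52, across genes that are not independent replicates.

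No gene was called for a difference of its XPO4 effect between baseline and TGFβ after adjustment over 11951 genes (limma interaction, 0 called, 344 with an unadjusted p under 0.05, 62 of them called at baseline). A single gene was called when XPO4 baseline library 1 was dropped, and likewise for TGFβ control library 1 or 2. The smallest p was that of Cxcl10, whose log2 change was 1.08 at baseline and 1.58 with TGFβ (difference 0.50, SE 0.08, adjusted p = 0.248). With TGFβ it was at 1621, 1584, 1606 and 1669 FPKM with the empty vector and at 4650.0, 5091, 4567 and 5094 FPKM with XPO4. Dhx58 changed by 1.43 and 1.98 (adjusted p = 0.522). On the other side Cdc42ep2 had log2 changes of -0.38 and -0.98 (adjusted p of the difference = 0.373); its baseline call ended, at 0.0764 and 0.0535, when XPO4 library 0 or 1 was dropped. Acta2 was lower in both settings, with a log2 change of -1.22 at baseline and -1.46 with TGFβ (adjusted p = 4.57e-05), as was Evpl at -1.95 and -1.73 (adjusted p = 0.000143). Ifnb1 rose by 2.6 and 3.11 (adjusted p = 9.26e-06). Xpo4 itself was higher by 0.96 and 0.97 (adjusted p = 0.0105).

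**Figure D5:**
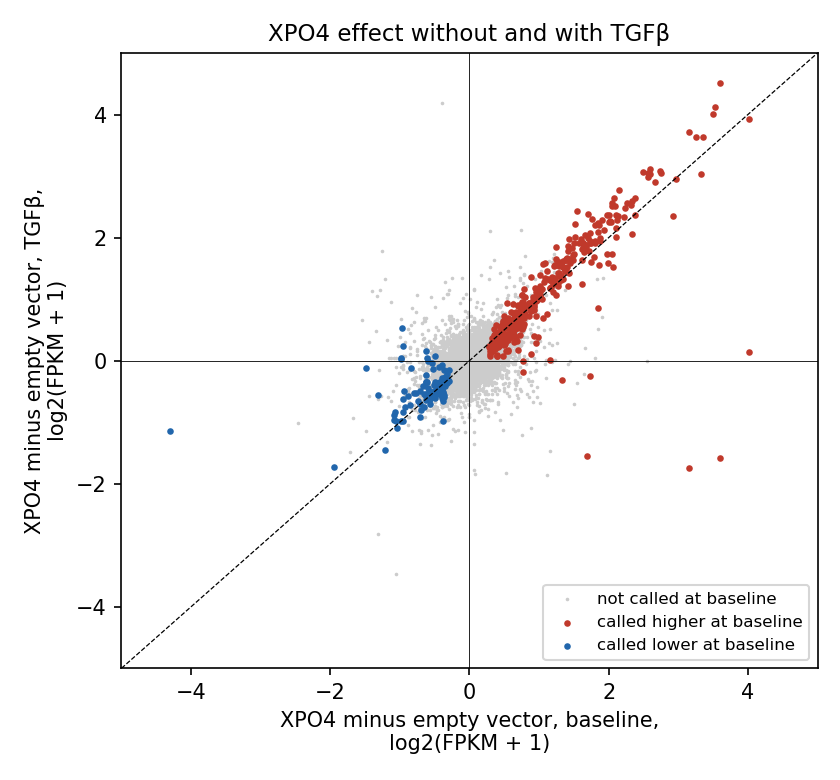
Log2(FPKM + 1) change with XPO4 at baseline (x axis) and with TGFβ (y axis), 1 point per gene tested in both. Red and blue points were called higher and lower at baseline, the dashed line marks equal changes, and most red points lie along it while a few called genes lie near or below 0 with TGFβ.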

How the data were processed

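RNA of 7 baseline and 8 TGFβ-treated JS1 libraries was measured by poly(A)-selected, strand-specific (dUTP) sequencing, per the labels' protocols. The submitters' processing notes name CASAVA 1.8.2, STAR 2.7.2b and, without a role for either, the builds mm10 and GRCh38. Which program made the FPKM values was not given in the sources used here. FPKM were deposited by the authors in 1 table per treatment, with 38277 gene identifiers in each. FPKM holds no counts, so depth and counting error are unknown, and fold changes on the log2(FPKM + 1) scale understate changes of low genes.

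Groups came from library titles and characteristics. Genes averaging 1 FPKM or more in the libraries fitted were tested with limma 3.58.1 (intensity trend, two-sided) in R 4.3.3, with a pseudocount of 1, Benjamini-Hochberg adjustment over all genes tested and a threshold of 0.05. XPO4 was compared with the empty vector within each table, and the difference of both effects was fitted on all 15 libraries. Xpo4 was also tested by exact permutation. The limma fits were tested on simulated data. Members, 77 gene lists and tests were chosen with earlier results of these data known. The naming rule took Xpo4, then, of called genes without overlap and with a unique symbol that is not a predicted name, the 15 largest rises and falls and the 5 largest gains and losses of FPKM, up to 5 called members per list by p (2 members where none was called), a fixed set of stellate, TGFβ and cargo genes, and 5 interaction genes per side. The text gives a subset, and a few genes are not reported here.

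Alternatives were 2 other pseudocounts, 2 other filters, 2 normalizations, a replicate block, a library set block and leaving out each library. Positions are from GENCODE M21 (mm10), which held 36426 identifiers, and promoters from RefSeq GRCm38.p6. Python 3.11.15 and matplotlib 3.10.9 drew the figures.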

Additional observations from a re-analysis of the deposited data

Results flagged for a closer look

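In 8 of the 149 genes named here, 1 of the 4 empty-vector libraries stood apart, with a gap to its nearest neighbour above Dixon's 95% limit as a share of the group's range. Chance flags about 1 in 20 groups. Empty-vector library 2 was the library in 5 of them. It was lower in Col6a2 (48.8 against 56.0 to 57.0 FPKM in the other 3), Daxx (58.7 against 80.6 to 84.3 FPKM), Eif5a (1223 against 1349 to 1358 FPKM) and Ifitm3 (1534 against 1752 to 1784 FPKM), and higher in Ddx58 (55.7 against 47.1 to 48.6 FPKM). Empty-vector library 3 stood above the others in Spp1 (631.3 against 574 to 578 FPKM). Empty-vector library 0 stood above the others in Tmsb4x (2209 against 2106 to 2115 FPKM) and in Ptprc (0.0322 FPKM, with the others at 0). The calls of Col6a2, Daxx, Ifitm3, Ddx58 and Tmsb4x kept their side of the threshold without that library.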

How the results depend on the processing

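The baseline counts of 340 higher and 103 lower genes were within 1.5 times under other pseudocounts, filters and normalizations. A replicate block gave 205 higher and 19 lower, 224 in all. The library set block, which split the codes in 2 where the order of the groups repeats, gave 63 lower. With the replicate block Xpo4 had an adjusted p of 0.0891 by limma, and calls of other named genes ended too. Among these were Foxo6 (0.105), Col6a2 (0.112), Mmp13 (0.112), Tagln (0.0738) and Scd1 (0.065). Others were Col6a1 (0.0606), Igfbp4 (0.0573), Wnt9a (0.0562) and Sdc3 (0.0548). The labels give the numbers no meaning, and same-numbered libraries of the 2 constructs hardly deviated together (correlations of deviations 0.03, 0.03 and 0.04); XPO4 library 0 correlated best with control library 3. Leaving out 1 library gave 224 to 346 higher, 46 to 105 lower and 276 to 451 in all. With TGFβ the 102 lower genes became 1.56 times as many on the TPM scale and 0.529 to 0.902 times as many (54 to 92) with 1 library left out. The interaction had 1 call on the TPM scale and 0 to 1 with 1 library left out. No change of a named called gene reversed. With no minimum level, the calls of Tmsb4x, Ccnb2, Elovl6, Lox, Socs1, Tnfaip3, Il18bp, RNaseP_nuc and COX17 ended; the cause was not tested. Depth is unknown and 3 against 4 libraries limit the precision.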
